A study of Mus musculus with 2 samples.

Results

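The AP-1 and BATF family transcription factors were examined in Treg cells isolated from the spleen of mice that received an islet allograft. The group held 10 genes, Fos, Fosb, Fosl1, Fosl2, Jun, Junb, Jund, Batf, Batf2 and Atf3, out of 20938 genes in the deposited tables, and all 10 passed the filter on low values. They were chosen by gene symbol with their levels in these same libraries already known, so their levels and changes are given as a description and carry no test. One library came from littermate controls, which the sample labels call wild type and the methods identify as floxed Mettl14f/f mice, and 1 library came from Foxp3-Mettl14f/+ cKO mice, in which Foxp3-Cre removes 1 of the 2 Mettl14 alleles in cells that express Foxp3. The sample label of the latter reads KD with the genotype Foxp3 knockdown, and the genotype of the methods is used here. All recipients were streptozotocin-diabetic mice on a C57BL/6J background that carried BALB/c islets under the kidney capsule without tolerizing antibodies, and Treg cells were taken on day 7 by magnetic isolation of CD4+CD25+ cells; the age of the mice and the number pooled per library are not given in the sources used here.

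Mettl14 encodes a subunit of the methyltransferase that writes N6-methyladenosine (m6A) in mRNA. AP-1 is a dimer of basic leucine zipper (bZIP) proteins, in which a FOS protein pairs with a JUN protein and the pair binds DNA through its basic region. Fos, Fosb, Jun, Junb and Atf3 are immediate early genes, whose transcription starts within minutes of receptor signaling or of cell stress. BATF lacks a transactivation domain, pairs with JUN proteins in place of FOS, and binds together with IRF4 in activated T cells, where it is known for its part in effector and tissue Treg cells.

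The 10 genes together held 11541 reads in control and 20801 in cKO cells, or 570.2 and 1135 reads per 1000000 reads. Levels are given on the deposited scale, on which read counts are divided by 1 size factor per library, and a change is a log2 fold change, cKO over control, after 1 was added to both levels. Each 95% interval comes from the Clopper-Pearson method applied to the split of a gene's reads between the libraries and covers counting error alone. Each genotype is represented by 1 library, and no difference below has a replicate check.

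Mettl14, the targeted gene, had a level of 917 in control and 741 in cKO cells, a change of -0.31 (-0.45 to -0.16). The Treg label was checked against its markers, and transcripts of other spleen cells were present in both libraries. Granulocyte markers had a higher summed level than Treg or T cell markers in both. The levels below therefore cannot be assigned to Treg cells alone. The 16 Treg markers all had reads, and 3 were 1.5-fold or more higher and 2 lower in the cKO library, with Foxp3 at 1547 and 1361 reads, a change of 0.05 (-0.06 to 0.15), and their summed level was 13513 in control and 15459 in cKO cells. Of the 12 B cell markers, 12 were 1.5-fold or more higher in cKO cells, and their summed level went from 8772 to 44893 with none at 0. Of the 12 macrophage markers, 12 were likewise higher, with a summed level of 5216 and 18378, and Marco was at 0 in the control library. The 16 T cell markers went from 76612 to 61918 with 0 genes higher and 2 lower, the 12 granulocyte markers from 239519 to 330759, the 10 CD8 T and NK cell markers from 5283 to 10524, the 10 dendritic cell markers from 6261 to 7566, and the 12 erythroid markers from 48786 to 25127, and no marker other than Marco was at 0 in either library. Of these lists 4 granulocyte, 6 CD8 T and NK cell and 3 dendritic cell markers were at least 1.5-fold higher, and 1 granulocyte and 9 erythroid markers were lower. In bulk libraries fewer cells of a type and less RNA per cell cannot be told apart.

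Of the 10 genes, 8 exceeded the control level by 1.5-fold or more in cKO cells, 1 was lower by that much and 1 was under this fold. Across all 16659 genes compared, the share higher by 1.5-fold or more was 17.2% and the share lower by as much was 24.2%. The median change of the 10 genes on the log2 scale was 1.26, against -0.04 for all genes compared. Setting Fosl1, the gene without reads in the cKO library, at its change against the floor of 3 reads left the median at 1.26. This setting could not move the median, because Fosl1 stayed the lowest of the 10 genes. Fos, Fosb, Jun and Atf3 formed the upper end of the group at 3.77-fold to 3.86-fold, and Junb, Fosl2 and Jund were between 1.53-fold and 2.24-fold higher.

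**Figure D1:**
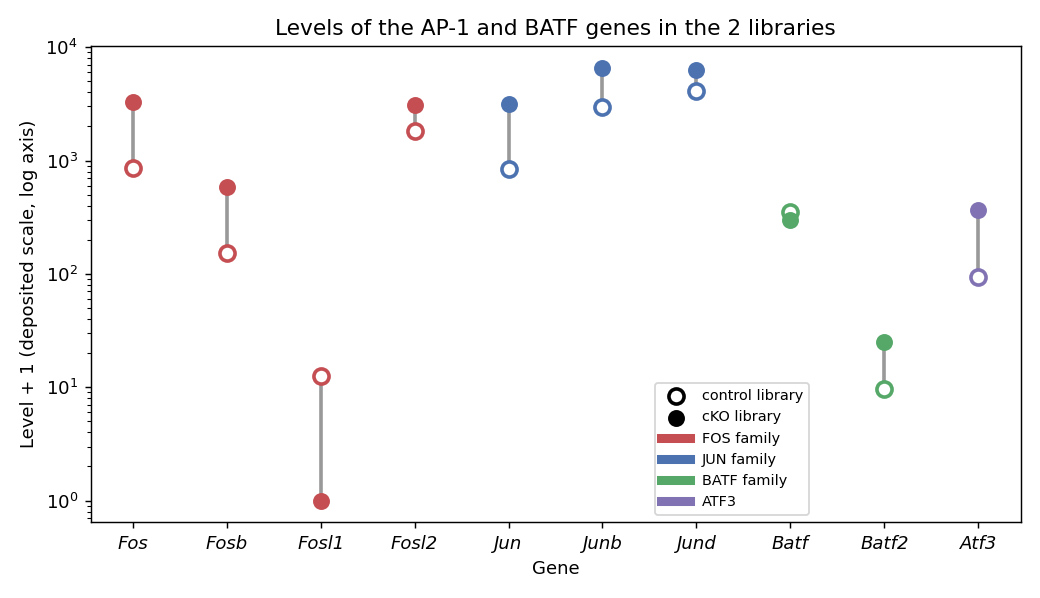
Levels of the 10 genes, plus 1, on a log axis in the control library (open circles) and the cKO library (filled circles), 1 library each, coloured by family. The level of Fos went from 854 to 3266 and that of Batf from 348 to 300.2, while Fosl1 had no reads in the cKO library and therefore sits at 1.

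In the FOS family, Fos encodes c-FOS, the classical partner of c-JUN. The gene has 4 exons in its longest annotated transcript and occupies bases 85473890 to 85477273 of chromosome 12 (GRCm38, plus strand). Its level was 854 in control and 3266 in cKO cells, from 883 and 2872 reads. The cKO library was thus the higher one by 1.93 on the log2 scale (95% interval 1.83 to 2.05).

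Fosb, on chromosome 7 from 19302696 to 19310051, encodes a FOS protein with a shorter form that lacks the activation domain. Its level was 152 in control and 582 in cKO cells, from 157 and 512 reads. The change of 1.93 (1.68 to 2.21) was the same as that of Fos to 2 decimals, from fewer reads.

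Fosl2, on chromosome 5 from 32135801 to 32157842, encodes FRA-2, a FOS protein without the strong activation domain of c-FOS. It had a level of 1814 in control and 3115 in cKO cells, a change of 0.78 (0.69 to 0.87). In reads it was the most abundant FOS gene of the control library, with 1875 reads, and in the cKO library it had 2739 reads, fewer than Fos.

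Fosl1, on chromosome 19 from 5447547 to 5455946, encodes FRA-1. It had 12 reads in the control library, a level of 11.6, and 0 reads in the cKO library. The control level was 3.40-fold above the floor of 3 reads in the cKO library, with the 12 control reads taken as exact. The interval of its log2 fold change, which includes their counting error, had an upper end of -1.24. Of 171 genes with 12 reads in the control library, 92 or 53.8% had 0 reads in the cKO library, so a drop from 12 reads to 0 was frequent in these tables. Fosl1 also overlaps Ccdc85b on the opposite strand, which had 343 and 303 reads, and the strandedness of the libraries is not given in the sources used here.

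The JUN genes each have 1 exon in their longest annotated transcript and encode the partners of FOS and BATF proteins. Jun, at bases 95049034 to 95052222 of chromosome 4 (minus strand), encodes c-JUN. Its level was 833 in control and 3142 in cKO cells, with 861 and 2763 reads and a change of 1.91 (1.80 to 2.03). Jun thus stood beside Fos in both level and change. The antisense genes Junos and Gm11175, which overlap Jun and Jund, have no values of their own here.

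Junb, on chromosome 8 from 84974484 to 84978718, encodes a JUN protein with weaker activation of single AP-1 sites than c-JUN, and its level was 2952 in control and 6603 in cKO cells. The change was 1.16 (1.10 to 1.23), from 3051 and 5807 reads. The end of Junb overlaps Prdx2, an antioxidant enzyme gene on the opposite strand, whose reads went the other way, from 3947 to 1687.

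Jund, on chromosome 8 from 70698949 to 70700616, encodes the JUN protein that resting cells hold. It had a level of 4099 in control and 6260.1 in cKO cells, from 4237 and 5505 reads. Its change of 0.61 (0.55 to 0.67) was the smallest of the 8 higher genes, at 1.53-fold, and the interval extended below 1.5-fold. Jund dropped under 1.5-fold with scaling to library totals, where the change was 0.52, and with the Treg markers set equal, where it was 0.42.

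Among the genes outside the FOS and JUN families, Atf3 encodes a stress-induced bZIP protein that pairs with JUN proteins and can repress transcription. It occupies bases 191170296 to 191218039 of chromosome 1 (minus strand), and its level was 92.9 in control and 362 in cKO cells. The change of 1.95 (1.63 to 2.31), from 96 and 318 reads, was the highest of the 10 genes, but its interval contained the values of Fos, Fosb and Jun.

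Batf, on chromosome 12 from 85686669 to 85709087, did not go with them. Its level was 348 in control and 300.2 in cKO cells, from 360 and 264 reads. The change was -0.21 (-0.45 to 0.02), an interval that just included 0. Whether 0 lay inside it depended on the scaling between libraries. The change was -0.30 (-0.54 to -0.07) with scaling to library totals and -0.41 (-0.64 to -0.18) with the Treg markers set equal, both below 0, and 0.09 (-0.14 to 0.33) with the T cell markers set equal. With TMM scaling the change was -0.24 (-0.472 to -0.004), also below 0. With median-of-ratios scaling it was -0.23 (-0.464 to 0.004), an interval that included 0.

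Batf2, on chromosome 19 from 6140983 to 6172476, is best known from macrophages that respond to interferon. It had 9 reads in control and 21 in cKO cells, at levels of 8.71 and 23.9. The change was 1.36, with an interval from 0.27 to 2.77 that gives its size poorly. It also overlaps Arl2 on the opposite strand, with 233 and 82 reads.

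**Figure D2:**
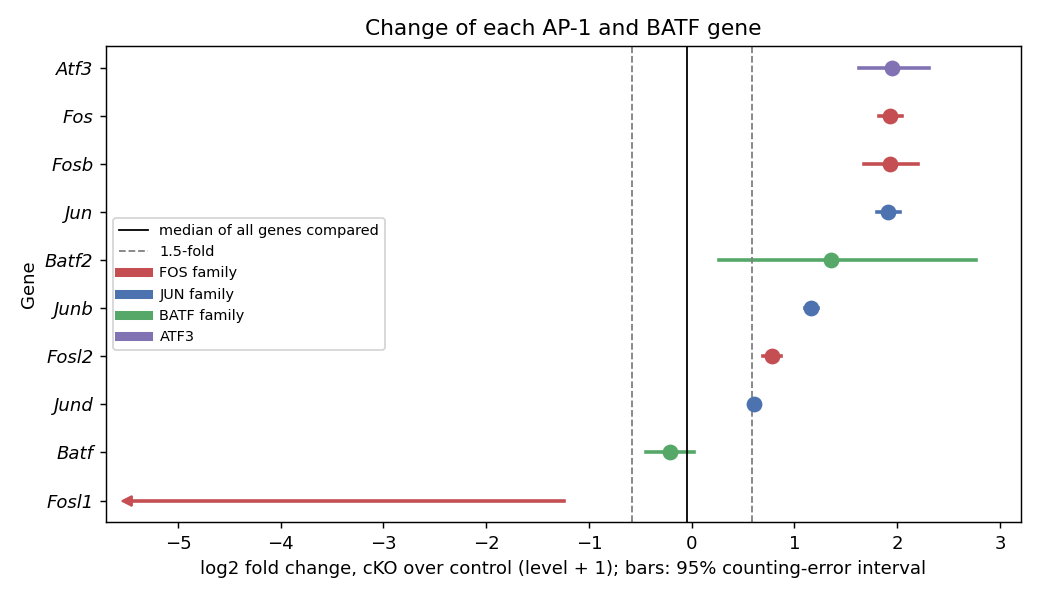
Log2 fold change of each gene, cKO over control, with 95% counting-error intervals as bars and families as colours. The solid line marks the median of all genes compared at -0.04 and the dashed lines mark 1.5-fold; Fosl1 is drawn only as the interval below -1.24, and on the deposited scale the interval of Batf, from -0.45 to 0.02, is the one that includes 0.

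The RefSeq promoter table (GRCm38.p6) held 8 of the 10 genes, and Fosl1 and Batf2 were not among them. The 250 bases before the transcription start are shown for the 4 genes with the highest change, Fos, Fosb, Jun and Atf3, and for Batf, which did not share it, so that the elements near their starts can be compared. They lie at chr12:85473640-85473889 on the plus strand (Fos), chr7:19310046-19310295 on the minus strand (Fosb), chr4:95052223-95052472 on the minus strand (Jun), chr1:191183334-191183583 on the minus strand (Atf3) and chr12:85686470-85686719 on the plus strand (Batf). Capitals mark TGACG (the core of the cAMP response element, CRE, bound by CREB and ATF proteins), the TATA box spelled TATAAA, the box CCAAT that NF-Y binds, and TGACATCA, a site for dimers of JUN and ATF proteins. All were searched on both strands; where the match is on the other strand, its reverse complement is capitalised.
Fos: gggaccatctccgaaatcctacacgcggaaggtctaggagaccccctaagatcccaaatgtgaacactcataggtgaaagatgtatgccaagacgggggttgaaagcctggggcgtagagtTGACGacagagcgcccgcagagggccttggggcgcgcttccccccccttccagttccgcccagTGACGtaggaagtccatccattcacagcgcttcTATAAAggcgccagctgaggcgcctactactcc
Fosb: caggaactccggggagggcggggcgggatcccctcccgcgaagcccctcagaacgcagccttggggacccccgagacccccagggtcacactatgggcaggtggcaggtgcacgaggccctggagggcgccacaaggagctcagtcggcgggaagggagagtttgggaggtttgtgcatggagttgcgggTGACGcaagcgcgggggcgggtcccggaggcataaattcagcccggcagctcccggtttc
Jun: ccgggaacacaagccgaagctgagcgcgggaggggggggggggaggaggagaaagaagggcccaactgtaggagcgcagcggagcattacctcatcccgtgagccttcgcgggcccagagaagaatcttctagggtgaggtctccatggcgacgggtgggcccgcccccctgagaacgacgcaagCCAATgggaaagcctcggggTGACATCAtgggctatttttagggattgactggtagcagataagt
Atf3: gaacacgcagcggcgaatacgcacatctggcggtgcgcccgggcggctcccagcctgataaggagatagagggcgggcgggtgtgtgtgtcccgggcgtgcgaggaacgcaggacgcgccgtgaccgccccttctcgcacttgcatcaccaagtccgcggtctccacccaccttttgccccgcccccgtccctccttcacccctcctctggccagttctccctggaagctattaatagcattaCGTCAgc
Batf: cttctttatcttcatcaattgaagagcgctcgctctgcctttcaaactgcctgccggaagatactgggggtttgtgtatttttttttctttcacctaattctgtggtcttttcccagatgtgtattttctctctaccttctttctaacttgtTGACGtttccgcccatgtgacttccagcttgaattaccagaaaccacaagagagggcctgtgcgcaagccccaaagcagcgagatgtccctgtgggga

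The CRE core TGACG was found in 5 of the 8 promoters, namely those of Fos, Fosb, Junb, Atf3 and Batf, and in 17.8% of 32851 promoters of the table. In Fos it starts 129 and 66 bases before the transcription start, the second one followed by a TATA box at 33 bases, and 12.4% of all promoters hold TATAAA. In Fosb it starts at 60 bases, in Batf at 98 bases and in Atf3 at 7 bases before the start. Jun held the site TGACATCA at 45 bases before its start, which 2.93% of all promoters hold, and a CCAAT box at 65 bases, as 33.9% of all promoters do. The GC box GGGCGG was found in 6 of the 8 promoters and in 32.7% of all, and it is left in lower case above. The GC content was 58.4% to 68.8% in the windows of Fos, Fosb, Fosl2, Jun, Junb and Atf3. It was 47.6% for Jund and 46.4% for Batf, against a median of 52.4% over all promoters. The motif shares were not compared with promoters of like GC content. None of the 8 windows held the AP-1 site TGANTCA, the full CRE TGACGTCA, which contains TGACG, or a CArG box, against 6.75%, 1.55% and 1.47% of all promoters. These are matches of letters in 1 window per gene. Sites farther from the start were not searched, so a window without a match does not mean that the gene lacks the site. The windows of Fosl2 and Jund precede RefSeq starts away from the gene starts of the GENCODE annotation. They are not shown, but they count among the 8. The window of Atf3 lies within the annotated gene, before a start downstream of its most distant one, and the last bases of the Batf window overlap the GENCODE gene.

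The common m6A site GGACT and the element ATTTA, known from the 3′ UTR of short-lived mRNAs, both given in the DNA alphabet, were counted in the longest coding transcript of each gene. GGACT occurred 4 times in Fos, 7 times in Jun, 8 times in Fosl2, 5 times in Fosb, 4 times each in Jund and Batf, 3 times in Junb, 2 times each in Atf3 and Batf2, and not in Fosl1. Of the 10 genes Batf had the densest occurrence at 4.19 per kilobase, against a median of 1.04 over 16302 genes compared, and 91.7% of these genes held at least 1 GGACT. Batf had the same count as Fos and Jund, which were higher in the cKO library. ATTTA occurred 4 times in the 3′ UTR of Fos and of Jun, 8 times in Fosl2, 3 times in Atf3, 2 times in Junb, and once each in Fosb, Jund and Fosl1, whereas the 3′ UTRs of Batf and Batf2 held none. At least 1 ATTTA was present in 68.2% and at least 3 in 37.5% of 16064 genes with an annotated 3′ UTR. No methylation or decay was measured in these libraries.

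Levels of different genes were compared per length, as reads per kilobase of merged exons per 1000000 reads, with 95% Poisson intervals. In the control library Jund was highest at 126 (122 to 129), followed by Junb at 65.5 and Fos at 18.5 (17.3 to 19.8). Jun at 13.3 (12.5 to 14.3) and Batf at 12.7 (11.4 to 14.0) came next, and their intervals overlapped. Fosl2 followed at 9.57, Atf3 at 2.20, Fosb at 1.24, Fosl1 at 0.29 and Batf2 at 0.18; the intervals of the last pair overlapped. In the cKO library the order began in the same way with Jund at 180.1, Junb at 138, Fos at 66.6 and Jun at 47.3. Fosl2 at 15.4 (14.9 to 16.0) then stood above Batf at 10.2 (9.05 to 11.6), and the interval of Batf overlapped neither that of Fosl2 nor that of Atf3, which followed at 8.06 (7.19 to 8.99). Fosb at 4.47 and Batf2 at 0.45 came last, ahead of Fosl1 without reads. The order of Jun, Batf and Fosl2 in the control library depended on the length used: with the longest transcript in place of merged exons, Batf held 6.64% of the summed reads per kilobase of the 10 genes, Fosl2 5.05% and Jun 4.75%.

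The make-up of the family pool, in which each gene's reads per kilobase are divided by the sum over the 10 genes within a library, does not depend on the scaling between libraries. The JUN family held 82.1% of the pool in control and 77.6% in cKO cells. The FOS family held 11.9% and 18.4%, the BATF family 5.15% and 2.27%, and Atf3 0.88% and 1.71%. Of the pool of all 10 genes Jund held 50.4% in control and 38.3% in cKO cells, while Jun went from 5.36% to 10.1% and Junb from 26.3% to 29.3%. Fos went from 7.45% to 14.2% and Batf from 5.08% to 2.18%. In plain reads, for which a binomial interval can be given, Batf held 3.12% (Clopper-Pearson 95% interval 2.81 to 3.45) and 1.27% (1.12 to 1.43). These intervals cover counting error alone and carry no test. A share falls when the other members rise, and the pool went from 11541 to 20801 reads. The change of Batf itself was -0.21 (-0.45 to 0.02).

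**Figure D3:**
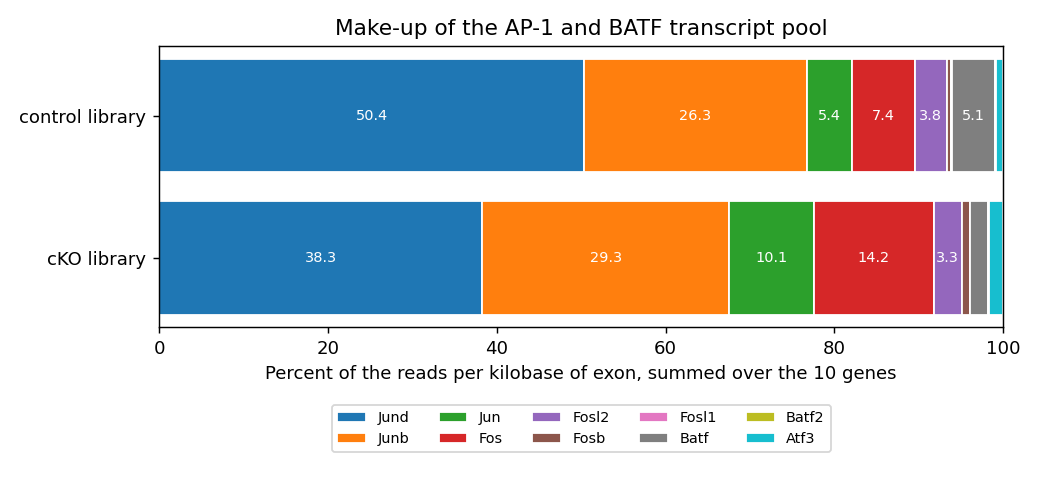
Share of each gene in the reads per kilobase of exon summed over the 10 genes, in percent, for the control and the cKO library (1 each). Jund takes 50.4% of the control bar and 38.3% of the cKO bar, Fos 7.45% and 14.2%, and Batf 5.08% and 2.18%.

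Ratios between genes of the same library are free of the scaling as well. There were 2.45 Fos reads for each Batf read in control and 10.9 in cKO cells, a change of the ratio of 2.15 on the log2 scale (95% interval 1.89 to 2.41). For Jun and Batf the ratios were 2.39 and 10.5, a change of 2.13 (1.87 to 2.39), and for Atf3 and Batf 0.27 and 1.20, a change of 2.18 (1.76 to 2.59). Jund, the member with the smallest fold change among the 8, had 11.8 and 20.9 reads for each Batf read, a change of 0.83 (0.58 to 1.07). With Jund as the reference instead, Fosl2 changed by 0.17 (0.07 to 0.27), Junb by 0.55 (0.46 to 0.64), and Fos, Fosb, Jun and Atf3 each by 1.30 to 1.35. These ratios restate the differences between the log2 fold changes above, free of the scaling, and their intervals cover counting error alone. Batf and Jund had lower changes than Fos, Fosb, Jun, Junb, Fosl2 and Atf3, so positive values against them were given in advance.

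The B cell and macrophage lists were higher in the same library as the AP-1 genes, so the reads of each member were set against the reads of the marker lists. Per 1000 reads on T cell markers there were 11.1 Fos reads in control and 52.7 in cKO cells, and per 1000 reads on Treg markers 63.2 and 211. Per 1000 reads on macrophage markers there were 164 and 178, and per 1000 reads on B cell markers 97.4 and 72.7. Fosb, Jun and Atf3 gave log2 changes of these ratios close to those of Fos, at 0.10 to 0.14 against macrophage markers and -0.44 to -0.39 against B cell markers. This follows from their similar fold changes, because each value is the log2 change of the gene less a constant for the list. The other higher members had lower ratios to macrophage markers in cKO cells, with log2 changes of -0.66 for Junb, -1.04 for Fosl2, -1.21 for Jund and -0.36 for Batf2. Against granulocyte markers the change was 1.47 for Fos, 0.70 for Junb, 0.31 for Fosl2 and 0.15 for Jund. For Batf there were 4.55 and 4.85 reads per 1000 on T cell markers and 66.8 and 16.3 per 1000 on macrophage markers. The part of B cell, macrophage or other cell RNA in the AP-1 result was not tested, and library and genotype cannot be told apart with 1 library each.

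**Figure D4:**
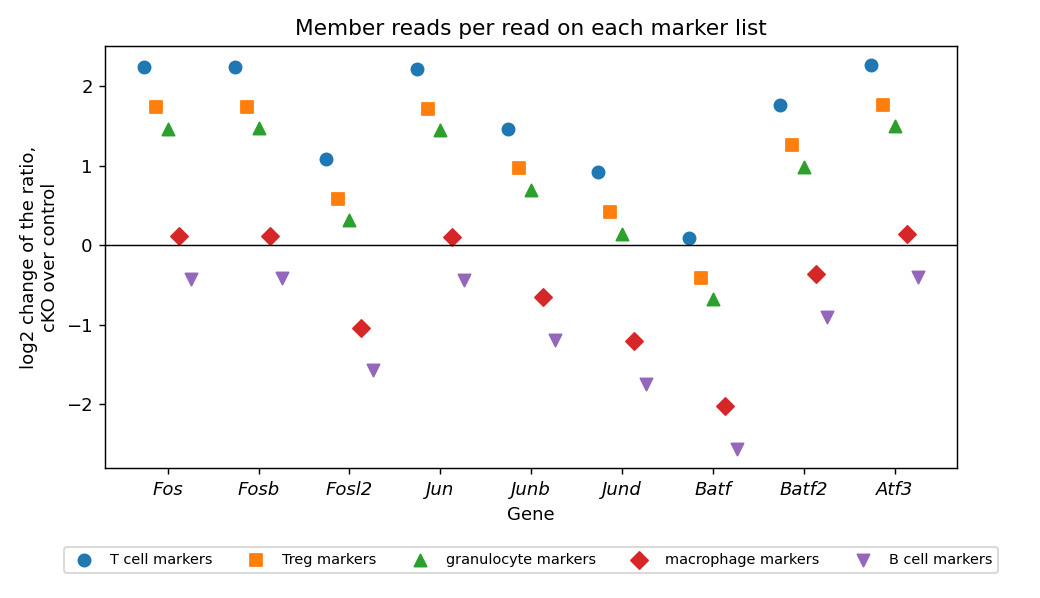
Log2 change, cKO over control, of each gene's reads divided by the summed reads of 5 marker lists (symbols), 1 library per genotype; Fosl1 is left out because it had 0 reads in the cKO library. Fos stands at 2.24 against T cell markers, 0.12 against macrophage markers and -0.42 against B cell markers, and Batf at 0.09, -2.03 and -2.57.

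Other bZIP genes, from a list of 43, were compared in the same way, since they share the DNA-binding domain and in part pair with AP-1 proteins. Of these 42 passed the filter, 6 were at least 1.5-fold higher, 2 at least 1.5-fold lower and 34 under that fold, with a median log2 fold change of 0.16. Of all genes compared, 17.2% were higher and 24.2% lower by that fold, and the counts of the lists below stand beside the same shares. Cebpb, known as a factor of macrophages and other myeloid cells, was at 2.93, from 515 to 3334 reads. Tef, Maff, Mafa and Bach2 were also among the higher genes, and Bach2, a repressor that competes with AP-1 in T and B cells, had a change of 0.63 (0.56 to 0.71). Hlf, a PAR bZIP factor, was lower by -1.74 from 160 to 40 reads, and Creb3l3 was lower from 31 to 8 reads, while Atf5 was at -0.51. Closest to the members in function were Batf3 at 0.13 (-0.40 to 0.68) from 62 and 58 reads, Jdp2, a JUN partner, at 0.55 (0.31 to 0.79), and Atf2 and Atf7 at 0.11 and 0.54.

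Of the 21 genes for MAP kinases, their kinases and the factors SRF and ELK that induce Fos transcription, 3 were 1.5-fold or more higher and 1 was lower, with a median of 0.06. Mapk7, which encodes ERK5, had a change of 0.98 from 390 to 656 reads, Mapk13 of 0.67 and Elk1 of 0.61. The lower gene was Mapk10, with 11 and 0 reads. Mapk9, which encodes JNK2, was at -0.31 and Map2k3 at -0.19. Srf was at -0.11, and 17 of the 21 genes were under 1.5-fold in either direction.

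Of the 7 DNA-binding partners, Irf8 was the 1 gene at least 1.5-fold higher, at 1.01 from 2095 to 3579 reads. It encodes a partner of BATF in B cells, macrophages and dendritic cells. Irf4, the partner of BATF in T cells, had 3144 and 2938 reads and a change of 0.14 (0.06 to 0.21). Nfatc1, which binds composite sites with AP-1, was at 0.57, Nfatc3 at 0.13 and Runx1 at -0.05.

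The list of 19 AP-1 targets did not go one way. Of the 17 that passed the filter, 4 were 1.5-fold or more higher and 6 at least 1.5-fold lower, with a median of 0.18. The shares over all genes compared were 17.2% higher and 24.2% lower, and with 17 genes a difference from them was not tested. Hmox1, the heme-degrading enzyme, was higher by 2.16 from 394 to 1499 reads, and Plaur, the urokinase receptor, by 1.23 from 706 to 1414 reads. Fasl and Cd69, an early activation marker of lymphocytes, were higher by 0.97 and 0.63. Ccl2 was lower by -1.95 from 53 to 11 reads, and the metallothionein genes Mt2 and Mt1 by -1.21 and -1.07. Il2 and Il6, with 9 and 26 reads in the control library, had 0 in the cKO library, and Spp1 was the sixth lower gene at -0.61.

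Of 15 genes of effector and tissue Treg cells in which BATF is known to act, 14 passed the filter, 2 were at least 1.5-fold higher, 2 lower and 10 under that fold, and the median was -0.045. Pparg and Tnfrsf8 were higher by 1.06 and 1.03, from 26 to 47 and from 52 to 91 reads. Ccr4, a chemokine receptor, was lower by -0.93 from 425 to 190 reads, and Il10 by -0.81 from 46 to 22 reads. Il1rl1, the receptor of IL-33, was at -0.56 (-0.72 to -0.40) and Ccr8 at -0.47 (-1.18 to 0.19). The median of this list lay next to that of all genes compared.

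**Figure D5:**
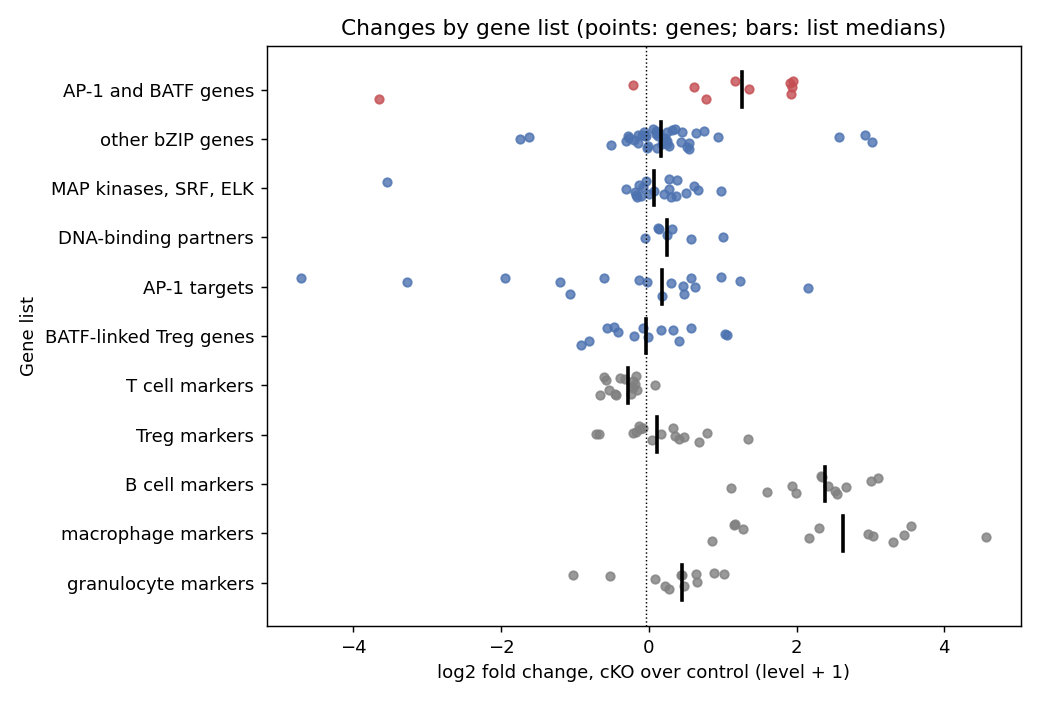
Log2 fold change, cKO over control, of the genes past the filter in each list (points, 1 per gene, with random vertical offset) with list medians (bars); genes with 0 reads in 1 library are placed by their level plus 1. The dotted line is the median of all genes compared at -0.04. The AP-1 and BATF median of 1.26 lies between those of the granulocyte markers at 0.45 and of the B cell markers at 2.38. The median of the other bZIP genes is at 0.16.

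The genes most like the members were sought among genes whose mean level was between 0.5 and 2 times that of the member, by the smallest difference in log2 fold change over the 2 libraries. For both Fos and Jun they were Ms4a1, Egr1 and Dusp1, with changes of 1.94, 1.95 and 1.98. Ms4a1 encodes the B cell surface protein CD20, Egr1 an immediate early zinc finger factor, and Dusp1 an immediate early phosphatase of MAP kinases. For Junb they were Lyn, Lrrk2 and Csf1r at 1.17, 1.16 and 1.15, and for Batf Rnf141, Gar1 and Tmem185a, all at -0.21. With 2 libraries, likeness means only a similar ratio.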

How the data were processed

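RNA-seq was performed by the authors on 1 library of splenic Treg cells per genotype. According to the methods, the authors aligned the reads to mm10 with TopHat, while the processing notes of the submitters name bcl2fastq 2.0, STAR, StringTie and DESeq2; the counting settings, the annotation and the strandedness are not given in the sources used here. The values deposited by the authors were treated as a signal made of read counts over a single size factor for each library, because 100% of the values in both libraries lay within 0.01 of a whole multiple of a fixed step. Whole reads were recovered by dividing by that step, 0.967 for control and 1.14 for cKO, and summed to 20239325 and 18327535. Low read numbers were unevenly filled (425 control genes had 4 reads, against 240 with 3 and 210 with 5), so the recovered reads may be rounded estimates, and the intervals, the floor and statements on genes with few reads take them as whole reads. A floor of 3 reads corresponds to 0.148 and 0.164 per 1000000 reads, and since no molecular identifiers are described, intervals and floors describe counting error alone.

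Changes were computed with a pseudocount of 1, for genes whose 2 levels averaged 1 or more, with the 1.5-fold threshold of the methods. No test result is given for a member. The members and the 13 gene lists were chosen with earlier results of these data known. Named were all members, Mettl14 and Foxp3, the 3 genes most like each of Fos, Jun, Junb and Batf, and, of the 5 lists of related genes, at least the 2 highest and the 2 lowest genes with 50 or more reads; other genes were named after their values were seen, and 1 gene that this rule names is not reported here. An exact two-sided binomial test on the reads was added for all genes with at least 10 reads in the libraries together. Lengths and coordinates came from GENCODE vM21 on GRCm38, to which 20516 symbols were matched. The scripts were checked on simulated counts. Scaling factors came from DESeq2 1.42.0 and edgeR 4.0.16 in R 4.3.3; everything else was computed with pandas 2.3.3, scipy 1.17.1 and numpy 2.4.6 and drawn with matplotlib 3.10.9 in Python 3.11.15. The alternatives were other pseudocounts, filters, scalings, lengths and a fold threshold of 2.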

Additional observations from a re-analysis of the deposited data

How the results depend on the processing

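No paired analysis was possible because there is 1 library for a genotype, and no replicate could be left out. The number of genes at least 1.5-fold higher was 8 with pseudocounts of 0.1 and 5, with no filter or a minimum mean of 10, with the TMM and median-of-ratios scalings and with the T cell markers set equal, 7 with scaling to library totals and with the Treg markers set equal, and 6 at a fold threshold of 2. A minimum mean of 10 removed Fosl1, which left 0 lower genes in place of 1. The median log2 fold change of the members ranged from 1.07 with the Treg markers set equal to 1.56 with the T cell markers set equal. These scalings moved the median of all genes by -0.20 and 0.31. Relative to that median the members stood at 1.31 and 1.30, which is no check, since a scaling shifts all genes nearly alike. The scalings also moved the share of higher genes among all genes past 1.5-fold from 41.6% to 29.9% and 59.6%. Among the members Batf changed sign, from -0.21 to 0.09 with the T cell markers set equal. The FOS family share of the pool was 25.4% and 29.4% in the control and cKO libraries without a length correction and 13.3% and 19.7% with the longest transcript, against 11.9% and 18.4% with merged exons. With the exact binomial test at an adjusted p under 0.1 and 1.5-fold, added after seeing the data, 2098 genes of 14863 were higher and 2670 lower, in place of 2864 and 4028; it compares the libraries and not the genotypes. Changes of genes under about 50 reads, such as Fosl1 and Batf2, are limited by depth.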
